A study of Rattus norvegicus with 8 samples.

Results

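Hspa5, Ddit3 and Atf3 are 3 genes by which stress of the endoplasmic reticulum (ER) is commonly read, and their RNA levels were followed here from cardiac fibroblasts to myofibroblasts and on to myofibroblasts under microcurrent. They were taken by their Ensembl IDs, ENSRNOG00000018294 for Hspa5, ENSRNOG00000006789 for Ddit3 and ENSRNOG00000003745 for Atf3. No measured value entered this rule, but earlier results of these data were known when the genes were chosen. All 3 were among the 21867 genes with estimated counts and among the 13849 genes that passed the filter on low counts. The deposited tables list IDs alone, so the symbols rest on the definition of the gene set.

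RNA was sequenced from 8 libraries of cultured rat cardiac cells, 2 biological replicates in each of 4 groups. Neonatal cardiac fibroblasts (CFs) from Wistar Kyoto rats, kept in medium with 10% fetal bovine serum (FBS), were the healthy control. Myofibroblasts (MFs), the contractile and matrix-producing cells that fibroblasts become after injury, were derived from CFs by repeated passaging in low-serum medium and served as the diseased baseline. The treated groups were such MFs exposed to direct current at 1 µA/cm2 or 2 µA/cm2 for 72 h in medium with 10% FBS. Passage and serum history differ between CF and all other groups along with cell state, and their parts cannot be told apart. How many animals went into a library, and in which medium the untreated MFs were kept over those 72 h, is not given in the sources used here. Serum may thus differ between treated cells and untreated MFs along with current, and their parts could then not be told apart.

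The ER folds secreted and membrane proteins, and fibroblasts, which export collagen and other matrix, load it heavily. When unfolded proteins build up in its lumen, the sensors PERK, IRE1 and ATF6 start the unfolded protein response, which slows translation, raises folding capacity and, if the stress lasts, favors cell death. Hspa5 encodes BiP (GRP78), the main chaperone of the ER lumen, which also binds the sensors at rest and is a target of ATF6. Ddit3 encodes CHOP, a transcription factor induced downstream of PERK and ATF4 and known for its pro-apoptotic targets. Atf3 encodes a stress-inducible transcription factor of the same ATF4 branch that also answers cytokines, serum and DNA damage.

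The promoters are shown because BiP is the textbook target of the ER stress response element, in which CCAAT is followed by CCACG after 9 bases of any kind. The RefSeq promoter table (build GRCr8, 250 bases before to 50 bases after the gene start) matched 2 of the 3 genes by symbol, Hspa5 and Ddit3. The Hspa5 window lies at chr3:38452766-38453065 and the Ddit3 window at chr7:65001445-65001744, both on the plus strand. The reads were assigned on another build, rn6. Capitals mark the letters CCAAT on either strand, the letters CCACG on either strand, and the whole element where these are spaced by 9 bases.
Hspa5: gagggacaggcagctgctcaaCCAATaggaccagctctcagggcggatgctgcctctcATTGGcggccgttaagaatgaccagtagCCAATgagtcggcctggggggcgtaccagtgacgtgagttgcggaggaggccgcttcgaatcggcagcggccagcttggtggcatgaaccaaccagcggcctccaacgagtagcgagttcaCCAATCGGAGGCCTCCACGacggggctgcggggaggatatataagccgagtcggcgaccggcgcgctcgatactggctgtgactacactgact
Ddit3: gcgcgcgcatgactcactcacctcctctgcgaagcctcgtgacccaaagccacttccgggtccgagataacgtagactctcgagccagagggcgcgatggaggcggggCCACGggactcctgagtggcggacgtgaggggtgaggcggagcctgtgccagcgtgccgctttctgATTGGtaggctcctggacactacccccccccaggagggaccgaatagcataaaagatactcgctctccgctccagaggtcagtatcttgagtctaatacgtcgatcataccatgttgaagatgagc

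The Hspa5 window held 1 full element, from 43 bases before the start, with letters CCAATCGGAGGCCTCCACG. The full element was present, on either strand, in 22 of 33469 promoters of the same length (0.0657%). Hspa5 also held 3 further CCAAT letters outside that element, 1 of them on the minus strand. The Ddit3 window held 1 CCACG and, on the minus strand, 1 CCAAT, not spaced as the full element. The search took exact letters only. On the minus strand that CCAAT is followed, at the spacing of the full element, by GCACG, which differs from CCACG in 1 letter. How common such near matches are among promoters was not tested. CCAAT and CCACG alone were common, in 37.5% and 31.6% of all promoters. The half-site TGACG, bound by factors of the ATF family, was found once in Hspa5 and not in Ddit3, and in 21.2% of promoters. The other motifs were searched on both strands, and neither window held any of them in exact letters. They were TGACGTCA (the full site of the ATF family, in 1.83% of promoters) and TGACGTGG (bound by ATF6 and XBP1, in 0.595%). The others were TGATGCAA (the core of the site of ATF4 with C/EBP factors, in 0.795%) and the TATA letters TATAAA (in 14.2%). Near matches of these were not searched. The Hspa5 window holds TATATA and the Ddit3 window CATAAA, each 1 letter away from TATAAA.

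The estimated counts summed to between 26473085 and 37903701 per library. The CF replicates stood farthest apart, with a median absolute difference of 0.262 in log2 CPM (counts per library scaled to a common total, with TMM factors) over all genes tested, against 0.122 in MF, 0.148 at 1 µA/cm2 and 0.204 at 2 µA/cm2. Results against CF are therefore also given without each CF library. Cell type markers were not checked here, because the tables do not pair IDs with symbols.

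Hspa5 was highest in CF and nearly level elsewhere. The CF libraries had 1602 and 1173 CPM. The MF libraries had 1079 and 1064 CPM. The libraries at 1 µA/cm2 had 1009 and 1002 CPM, and those at 2 µA/cm2 had 1075 and 1034 CPM. Both CF libraries thus lay above all 6 others, a pattern that 13.8% of the genes tested showed. In order of mean level, CF stood at 1388 ± 303, MF at 1072 ± 10.6, 2 µA/cm2 at 1054 ± 29.0 and 1 µA/cm2 at 1006 ± 4.95 CPM (SD, n = 2 each). The libraries of MF and 2 µA/cm2 overlapped. The 1 µA/cm2 mean was the lowest, with fitted differences from MF and 2 µA/cm2 whose intervals include 0.

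Ddit3 had the same order at its extremes. The CF libraries had 48.5 and 33.2 CPM. The MF libraries had 32.4 and 28.4 CPM. The 1 µA/cm2 libraries had 27.3 and 28.4 CPM, and the 2 µA/cm2 libraries had 33.5 and 24.8 CPM. The lower CF library fell just under the higher 2 µA/cm2 library, so Ddit3 did not part CF from all other cells, and the 2 µA/cm2 libraries spanned every MF and 1 µA/cm2 value. Group means were 40.8 ± 10.8 in CF, 30.4 ± 2.84 in MF, 29.1 ± 6.13 at 2 µA/cm2 and 27.8 ± 0.785 CPM at 1 µA/cm2 (SD, n = 2 each).

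Atf3 was high in a single library. CF replicate 2 had 37.8 CPM and CF replicate 1 had 14.1 CPM. The MF libraries had 13.6 and 13.4 CPM. The 1 µA/cm2 libraries had 15.5 and 9.48 CPM, and the 2 µA/cm2 libraries had 14.2 and 12.3 CPM. Without CF replicate 2, every library fell between 9.48 and 15.5 CPM, and CF replicate 1 lay inside the range of the treated cells. Group means were 25.9 ± 16.8 in CF, 13.5 ± 0.156 in MF, 13.3 ± 1.36 at 2 µA/cm2 and 12.5 ± 4.28 CPM at 1 µA/cm2 (SD, n = 2 each).

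**Figure D1:**
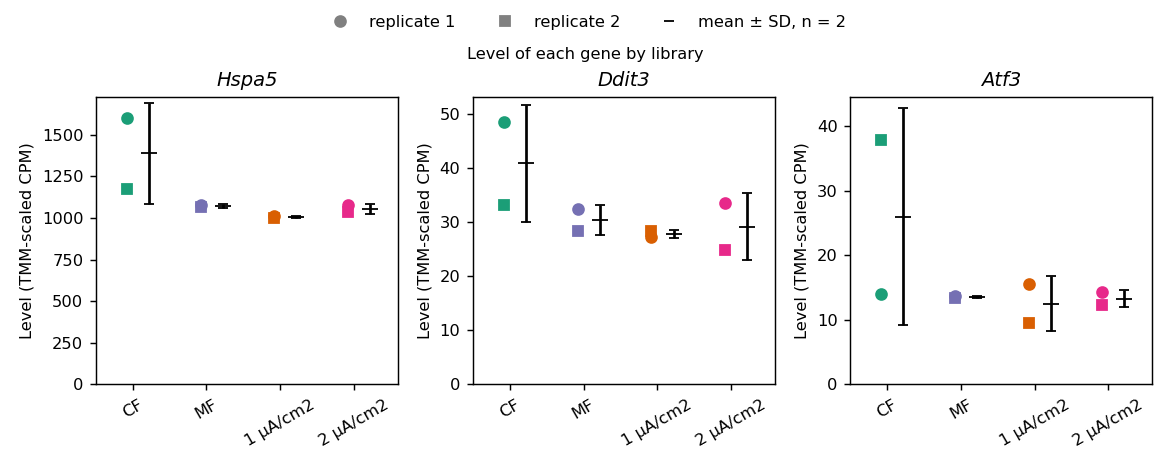
Level of each gene in every library, as TMM-scaled CPM on a linear axis from 0, for CF, MF and MF at 1 µA/cm2 or 2 µA/cm2. Circles are replicate 1, squares replicate 2, and black bars the mean ± SD (n = 2). The CF library that stands high is replicate 1 for Hspa5 (1602 CPM) and Ddit3 (48.5 CPM) and replicate 2 for Atf3 (37.8 CPM).

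The CF replicates differed in opposite directions for these genes. CF replicate 1 was 1.37-fold above CF replicate 2 for Hspa5 and 1.46-fold for Ddit3, whereas CF replicate 2 was 2.68-fold above CF replicate 1 for Atf3. Over all genes tested, 29.7%, 23.6% and 4.07% were at least as far apart between the CF libraries as Hspa5, Ddit3 and Atf3. In MF the same shares were 90.2%, 33.8% and 88.5%, so Hspa5 and Atf3 were tighter there than most genes. Atf3 also differed by 1.63-fold between the 1 µA/cm2 libraries, a gap that 7.74% of genes reached.

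**Figure D2:**
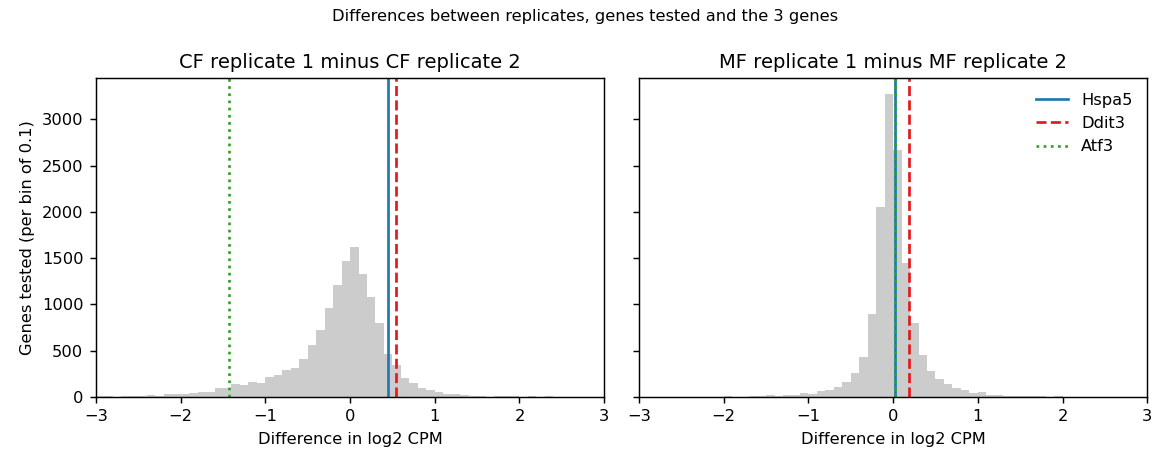
Difference in log2 CPM between replicate 1 and replicate 2 of CF (left) and MF (right), in bins of 0.1 for all 13849 genes tested (grey bars, genes beyond the axis not shown), with vertical lines for the 3 genes. In CF, Hspa5 (0.45) and Ddit3 (0.55, higher in replicate 1) lie to the right and Atf3 (-1.42, higher in replicate 2) far to the left, while in MF all 3 lie between 0 and 0.19.

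The first comparison asked how the genes differ once CFs have become MFs. For all 3, both CF libraries lay above both MF libraries, as for 34.4% of the genes tested. None passed the test. A gene was called at an adjusted p below 0.05 (edgeR's quasi-likelihood test, Benjamini-Hochberg over all genes) and a log2 fold change of 1 or more in either direction, which are the study's thresholds. In this comparison 10.4% of the genes tested were called, 0 of the 3 genes were called by edgeR or by DESeq2, and 0 had an unadjusted p below 0.05 in edgeR against 2 in DESeq2. Of the same genes tested, DESeq2 called 12.3%, and an unadjusted p below 0.05 was reached by 35.5% in edgeR and 33.4% in DESeq2.

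From CF to MF, Hspa5 had a log2 fold change of -0.37 (95% interval -0.76 to 0.02, adjusted p = 0.157 from edgeR). The chaperone was thus 0.772-fold of its CF level, with an interval of 0.589 to 1.01. For CHOP's gene Ddit3 it was -0.43 (-0.93 to 0.08, adjusted p = 0.199 from edgeR). For Atf3 it was -0.94 (-2.003 to 0.13, adjusted p = 0.183 from edgeR). The intervals of Hspa5 and Ddit3 do not reach a halving, and that of Atf3 does.

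These values depended on which CF library was used. Without CF replicate 1 the log2 fold change of Hspa5 was -0.12 (adjusted p = 0.594 from edgeR) and that of Ddit3 was -0.11 (adjusted p = 0.753), while Atf3 was called at -1.47 (adjusted p = 0.0243). Without CF replicate 2 the values were -0.58 for Hspa5 (adjusted p = 0.0176 from edgeR) and -0.68 for Ddit3 (adjusted p = 0.0423), neither past the fold threshold, and -0.06 for Atf3 (adjusted p = 0.897). CF then rested on 1 library, which the fit takes to vary like the other groups.

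The second question was whether the genes differed between MFs under current and untreated MFs, and here the values were close to 0. Against MF, 3.92% of all genes tested were called at 1 µA/cm2, 4.62% at 2 µA/cm2 and 6.76% in the mean of both currents. None of the 3 genes was called by edgeR or DESeq2 in any of these, and 0 had an unadjusted p below 0.05 in either tool. Over the genes tested, an unadjusted p below 0.05 was reached by 26.3%, 27.5% and 32.5% in edgeR and by 25%, 26.2% and 30.8% in DESeq2, which called 6.77%, 7.47% and 8.02%, in the order given. All these comparisons use the same 2 MF libraries.

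Hspa5 had a log2 fold change of -0.09 at 1 µA/cm2 (95% interval -0.48 to 0.30, adjusted p = 0.757 from edgeR) and -0.02 at 2 µA/cm2 (-0.41 to 0.37, adjusted p = 0.941). In the mean of both currents it was 0.961-fold of MF, with an interval of 0.760 to 1.21. At 2 µA/cm2 the value was so near 0 that it turned to 0.029 under upper quartile scaling and to 0.004 without 2 µA/cm2 replicate 2.

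Ddit3 had a log2 fold change of -0.13 at 1 µA/cm2 (-0.63 to 0.38, adjusted p = 0.741 from edgeR) and -0.06 at 2 µA/cm2 (-0.57 to 0.45, adjusted p = 0.88). In the mean of both currents CHOP RNA was 0.937-fold of MF, with an interval of 0.693 to 1.27. The direction of the value at 2 µA/cm2 changed with the library left out, to 0.14 without 2 µA/cm2 replicate 2 and -0.29 without 2 µA/cm2 replicate 1.

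Atf3 had a log2 fold change of -0.11 at 1 µA/cm2 (-1.18 to 0.96, adjusted p = 0.901 from edgeR) and -0.03 at 2 µA/cm2 (-1.09 to 1.04, adjusted p = 0.978). In the mean of both currents it was 0.954-fold of MF, with an interval of 0.503 to 1.81 that spans nearly a halving and a doubling. The log2 fold change of Atf3 also changed sign with the library left out. At 1 µA/cm2 it was 0.20 without 1 µA/cm2 replicate 2, and at 2 µA/cm2 it was 0.08 without 2 µA/cm2 replicate 2. In the fit to all libraries, whose spread per gene includes CF, Atf3 was thus the gene for which a change was least detectable. Fits were also run without CF and, for a single density, without the other current. The standard error of Atf3 then fell from 0.449 to 0.129 at 2 µA/cm2, below the 0.176 of Ddit3. At 1 µA/cm2 it fell from 0.45 to 0.236, and for the mean of both from 0.388 to 0.202. Those values stayed above the 0.106 and 0.137 of Ddit3. Atf3 was not called in these fits.

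Library by library, the treated cells did not part from MF on any of the genes. For Hspa5, 3 of the 4 treated libraries lay below both MF libraries. For Ddit3, 2 treated libraries lay below both MF libraries and 1 above. For Atf3, 2 lay below and 2 above. Of all genes tested, 26.4% had all 4 treated libraries above both MF libraries and 26.6% had all 4 below. On log2 CPM the mean of the treated libraries was below that of MF by a difference of -0.06 for Hspa5 (two-sided exact permutation test over 15 ways to pick the MF libraries, p = 0.267), -0.10 for Ddit3 (exact permutation p = 0.667) and -0.09 for Atf3 (exact permutation p = 0.933). The smallest p this design allows is 0.133. The fitted sign for Ddit3 in the mean of both currents turned without MF replicate 1 (0.004) or 2 µA/cm2 replicate 2 (0.007), and that for Atf3 without 1 µA/cm2 replicate 2 (0.089).

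**Figure D3:**
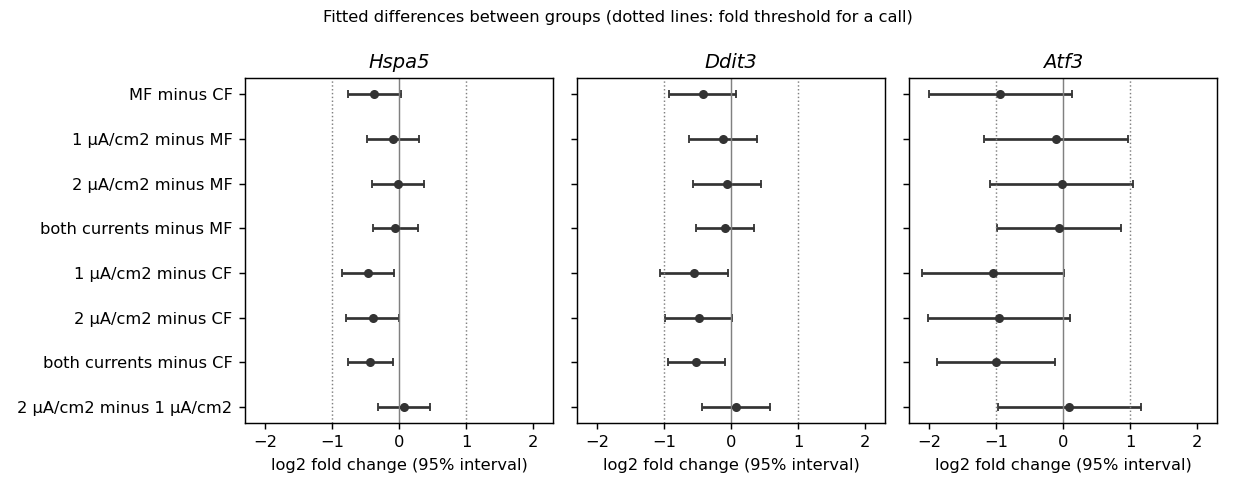
Fitted log2 fold change (points) with its 95% interval (bars) for 8 comparisons of groups, from a single fit to all 8 libraries. The solid line marks no difference and the dotted lines the fold threshold of 1. The comparisons against MF and between currents sit near 0, and those against CF sit below it, with the widest intervals for Atf3.

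Between the current densities there was likewise no call among the 3 genes. The log2 fold change of 2 µA/cm2 against 1 µA/cm2 was 0.07 for Hspa5 (95% interval -0.32 to 0.46), 0.07 for Ddit3 (-0.44 to 0.57) and 0.09 for Atf3 (-0.98 to 1.15), each at an adjusted p of 1 from edgeR. The last 2 changed sign when 2 µA/cm2 replicate 1 was left out (-0.17 and -0.02), and Atf3 also without 1 µA/cm2 replicate 2 (-0.22). No gene of the 3 had an unadjusted p below 0.05 in edgeR or DESeq2, and DESeq2 called 0. In all, 0.00722% of the genes tested, a single gene, was called here by edgeR and 0.0505% by DESeq2, and an unadjusted p below 0.05 was reached by 0.52% and 0.44%.

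The last comparison set the treated cells against healthy CFs, which the study uses as the state before disease. All 3 genes had lower means in the treated cells, and kept that direction in every alternative run. Called genes made up 6.51% of those tested at 1 µA/cm2, 5.02% at 2 µA/cm2 and 7.65% in the mean of both currents. By edgeR 0 of the 3 genes were called in each, though 2, 1 and 3 of them had an unadjusted p below 0.05. DESeq2 called 0, 0 and 1 of them, and all 3 had an unadjusted p below 0.05 in each. Over the genes tested, an unadjusted p below 0.05 was reached by 26.7%, 23.8% and 30.6% in edgeR and by 25.7%, 22.8% and 29.3% in DESeq2, which called 8.90%, 7.70% and 9.44%, in the same order.

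In the mean of both currents against CF, the log2 fold change of Hspa5 was -0.43 (95% interval -0.76 to -0.10, adjusted p = 0.0904 from edgeR). The chaperone was 0.742-fold of CF. For Ddit3 it was -0.52 (-0.95 to -0.09, adjusted p = 0.104 from edgeR). For Atf3 it was -1.01 (-1.89 to -0.12, adjusted p = 0.124 from edgeR), and this was the gene that DESeq2 called (log2 fold change -1.003, adjusted p = 0.0389). Hspa5 had an adjusted p of 0.0339 in DESeq2 with a log2 fold change of -0.43, under the fold threshold.

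At single current densities, the values against CF were -0.47 at 1 µA/cm2 and -0.40 at 2 µA/cm2 for Hspa5. For Ddit3 they were -0.55 and -0.49, and for Atf3 -1.05 and -0.96. Adjusted p-values from edgeR ranged from 0.131 for Hspa5 at 1 µA/cm2 to 0.246 for Atf3 at 2 µA/cm2. Without CF replicate 1, Atf3 was called at both densities, at -1.58 (adjusted p = 0.0243 from edgeR) and -1.49 (adjusted p = 0.0337), and Hspa5 was at -0.21 and -0.13 and Ddit3 at -0.24 and -0.17, with adjusted p-values from 0.344 to 0.655. Without CF replicate 2, Hspa5 was at -0.67 (adjusted p = 0.0201 from edgeR) and -0.60 (adjusted p = 0.0316), and Ddit3 at -0.80 (adjusted p = 0.0413) and -0.73 (adjusted p = 0.0578), all under the fold threshold. Atf3 was then at -0.17 and -0.08 (adjusted p = 0.72 and 0.879 from edgeR). These comparisons use the same CF libraries as the comparison of MF with CF.

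As between MF and CF, single CF libraries set the outcome. For the mean of both currents without CF replicate 1, Atf3 was called at -1.54 (adjusted p = 0.0148 from edgeR), and Hspa5 and Ddit3 were at -0.17 and -0.20 (adjusted p = 0.376 and 0.504). Without CF replicate 2, Hspa5 was at -0.64 (adjusted p = 0.0149 from edgeR) and Ddit3 at -0.77 (adjusted p = 0.0295), both under the fold threshold, and Atf3 was at -0.13 (adjusted p = 0.768).

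**Figure D4:**
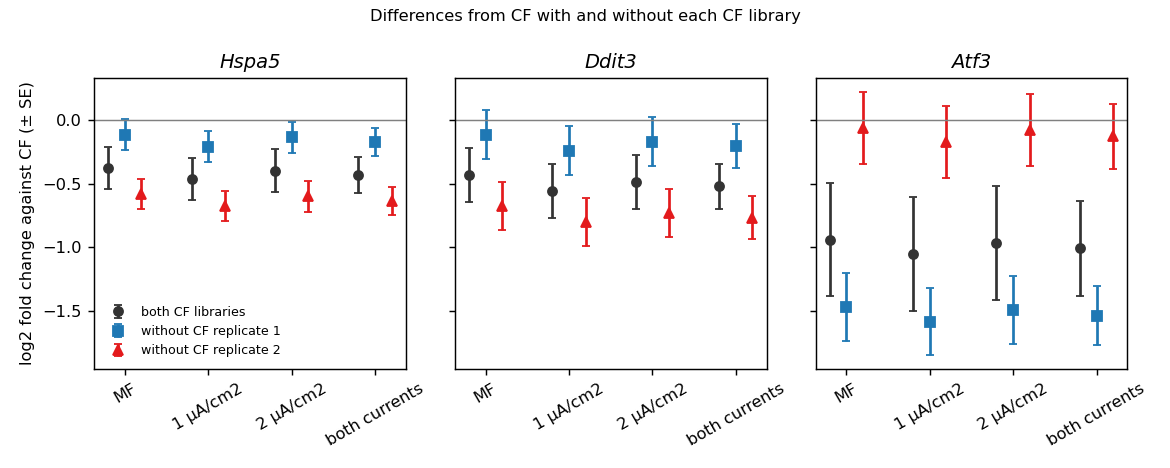
Log2 fold change against CF (± SE of the fit) of MF, of each treated group and of the mean of both currents, with both CF libraries (circles), without CF replicate 1 (squares) and without CF replicate 2 (triangles). For Atf3 the values without CF replicate 2 lie between -0.17 and -0.06 and those without CF replicate 1 between -1.58 and -1.47, whereas Hspa5 and Ddit3 move the other way.

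Levels of the 3 transcripts were also set side by side over the libraries. Over the 8 libraries, the authors' variance stabilised (vst) values of Hspa5 and Ddit3 had a Pearson r of 0.949 and a Spearman rho of 0.881. CF replicate 1 was highest for both, and over the 6 libraries other than CF the Pearson r was 0.596 (Spearman rho 0.714). Atf3 and Hspa5 had a Pearson r of 0.206 and a Spearman rho of 0.357 over the 8 libraries, and 0.387 and 0.0857 over the 6 without CF. For Atf3 and Ddit3 the Pearson r was 0.211 and the Spearman rho 0.643 over the 8 libraries, and 0.384 and 0.60 over the 6. The Pearson and Spearman values thus differ most for Atf3 and Ddit3 over the 8 libraries. These are descriptions over libraries that share groups and scaling.

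Taken as a ratio within each library, Ddit3 to Hspa5 spanned 0.38 on the log2 scale over the 8 libraries. Of all other genes tested, 1.64% had a ratio to Hspa5 that spanned less, and the median span was 1.04. The lowest and the highest Ddit3 ratio were both at 2 µA/cm2, so the span without the CF libraries was also 0.38. The ratio of Atf3 to Hspa5 spanned 1.87, more than for 78.7% of genes, or 0.70 without the CF libraries.

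The genes whose vst values were most like each member over the 8 libraries can be given only by ID. ENSRNOG00000031173 was most like Hspa5 (Pearson r = 0.993), ENSRNOG00000023202 most like Ddit3 (r = 0.976) and ENSRNOG00000054765 most like Atf3 (r = 0.988). None of them was called in any of the 8 comparisons. The first had 360 and 299 CPM in CF against 272 to 285 CPM in the other 6 libraries. The last had 47.7 CPM in CF replicate 2 and 19.0 to 24.7 CPM in the other 7 libraries. These genes were picked for their likeness over the same libraries, so such shared patterns follow from the choice. A Pearson r over 0.9 was reached by 113 genes with Hspa5 (0.816% of 13848), 48 with Ddit3 (0.347%) and 74 with Atf3 (0.534%).

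The second deposited table, of whole-number counts, gave the genes the same pattern. Its counts were 85.7% to 87.4% of the estimated counts for Hspa5, 77.2% to 84.4% for Ddit3 and 85.3% to 90.0% for Atf3 over the 8 libraries. In that table Atf3 had 1009 counts in CF replicate 2 and 458 in CF replicate 1, and Hspa5 had 31278 and 51829, so the opposite order of the CF libraries is in both tables. How the share of cells of each kind, or the RNA per cell, moves with these levels cannot be told apart in bulk libraries.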

How the data were processed

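RNA-seq values of 8 libraries were analysed. For each library the authors deposited an estimated count per gene (salmon 1.4.0 on the rn6 transcriptome, summarized with tximeta 1.14.1), a normalized signal made from them with DESeq2 factors that differ by gene and library, and vst values, which are log2-like. A further table deposited by the authors holds whole-number counts of 13341 genes. Its counter is not given in the sources used here, and the submitters' processing notes name STAR and DESeq2 1.28.1.

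Estimated counts were rounded and tested with edgeR 4.0.16 (R 4.3.3, filterByExpr, TMM, robust quasi-likelihood F test, 1 coefficient per group, 8 libraries, 4 residual degrees of freedom). The standard error was taken from the log2 fold change and F, and the 95% interval used the t distribution with the moderated degrees of freedom. Intervals use a spread per gene that was fitted over all groups, CF included. CPM used TMM library sizes, and log2 CPM a prior count of 2. The fit was tested on simulated counts for the comparison of MF with CF alone, drawn with the same dispersion for every gene and library. The simulation thus leaves out the wider spread between the CF replicates and the differences in spread between genes. It does not check the intervals of the other comparisons. Replicates differed by more than counting noise (chi-square per gene 16.3 for the MF pair, up to 114 for the CF pair). Permutation tests used scipy 1.17.1 and figures matplotlib 3.10.9 in Python 3.11.15. Alternatives were DESeq2 1.42.0, upper quartile and RLE scaling, filters of none or of 10 counts per library, the whole-number table, only the groups compared, a replicate block, transcript length offsets, other thresholds, and leaving out each library.

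The members, gene lists and motifs were chosen with earlier results of these data known. The named genes were the 3 members, an unfolded protein response list by role, and the gene most alike to each member. The list and the cell type markers could not be applied, as none of the 47357 RefSeq entries (GRCr8) carries an Ensembl ID.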

Additional observations from a re-analysis of the deposited data

How the results depend on the processing

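Of 408 values of the 3 genes from alternative fits, 390 kept their direction and their side of the threshold, 5 were newly called and 13 changed sign, each of the 13 at an adjusted p of 0.745 or more from edgeR and none against CF. The cause of these changes was not tested. The other 2 thresholds, applied to the same fit, left all 48 values uncalled, as in the main fit. With no call to lose, the stricter threshold (adjusted p below 0.01) could not have changed any. Only the threshold with no fold limit could have added calls. DESeq2 called Atf3 for the mean of both currents against CF (-1.003). Upper quartile scaling turned Hspa5 and Atf3 at 2 µA/cm2 against MF to 0.029 and 0.027. The unfolded protein response list was not run, since IDs could not be paired with symbols.

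Leaving out 1 library gave log2 fold changes for MF against CF of -0.58 to -0.12 for Hspa5, -0.68 to -0.11 for Ddit3 and -1.47 to -0.058 for Atf3. Against CF, they were -1.58 to -0.17 for Atf3 at 1 µA/cm2, -1.49 to -0.079 at 2 µA/cm2 and -1.54 to -0.125 for the mean of both. Against MF, they were -0.51 to 0.198 for Atf3 at 1 µA/cm2. At 2 µA/cm2 against MF, they were -0.052 to 0.004 for Hspa5, -0.293 to 0.14 for Ddit3 and -0.134 to 0.076 for Atf3. For the mean of both currents against MF, they were -0.21 to 0.007 for Ddit3 and -0.267 to 0.089 for Atf3. Between current densities, they were -0.166 to 0.267 for Ddit3 and -0.218 to 0.485 for Atf3.

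Whether samples with the same replicate number were prepared together is not given in the sources used here. With so few libraries per group, correlations between replicates cannot settle it. Deviations from the group means correlated at -0.17 to 0.24 over 6 pairs of groups, with 1 above 0.1. The replicate block changed no call of the 3 genes, gave Ddit3 an adjusted p of 0.0757 for the mean of both currents against CF, and called 1279 genes in all between MF and CF against 1438.

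The counts of called genes over the whole table, which serve here as background, ranged over the alternatives and libraries left out from 336 to 2560 between MF and CF, from 4 to 1164 at 1 µA/cm2 and 9 to 1097 at 2 µA/cm2 against MF, 17 to 2077 for the mean of both against MF, 138 to 1326 and 2 to 1072 against CF, 457 to 1857 for the mean against CF, and 0 to 7 between current densities. With log2 CPM in place of vst values, the same IDs were most like Hspa5 and Ddit3 and another was most like Atf3 (r = 0.987). With 2 libraries per group, the fits do not tell apart changes within the intervals given.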
